A study of Mus musculus with 6 samples.

Results

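Genomic regions that carried an NRF2 peak in exactly 3 of 4 chromatin immunoprecipitation sequencing (ChIP-seq) libraries from mouse embryonic fibroblasts numbered 209, or 1.45% of the 14390 regions with a peak in any library. They were chosen by presence of a peak: windows that overlapped by at least 1 bp on the same chromosome were merged, and regions with windows from exactly 3 of the 4 peak lists were kept and grouped by the list without one. The list of wild-type (WT) cells in complete medium lacked 51 of them, the WT list without leucine 27, the GCN2 knockout (KO) list in complete medium 72 and the KO list without leucine 59. A further 256 regions were in all 4 lists, 476 in 2 lists and 13449 in 1 list. Presence and score rank are therefore descriptions of how the regions were selected, and no test is made of them.

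The fibroblasts came from 129S6/SvEvTac mice and were either Wild-type or GCN2-/-. Each genotype was grown in DMEM, complete or without leucine, for 24 h, and NRF2 was precipitated with antibody ab62352. Each of the 4 conditions gave 1 NRF2 library, and 2 input libraries came from complete medium, 1 per genotype. The lists held 2336 peaks (WT complete), 5980 (WT no-leucine), 3141 (KO complete) and 4600 (KO no-leucine), each window 301 bp wide with a whole-number score of at least 13. With 1 library per condition nothing here has a replicate check, the read depth behind a list is unknown, and a missing window shows a signal below the authors' threshold rather than absence of NRF2. Peak lists measure neither the knockout nor cell-type markers, so they do not check those labels.

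NRF2, encoded by Nfe2l2, is a basic leucine zipper factor that KEAP1 holds in the cytoplasm and marks for degradation. Under oxidative or electrophilic stress it accumulates, pairs with small Maf proteins and binds antioxidant response elements (AREs) near genes of glutathione use, detoxification, iron handling and efflux. GCN2, encoded by Eif2ak4, is a kinase that senses uncharged tRNA when an amino acid such as leucine is short and phosphorylates the translation factor eIF2 alpha.

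Promoter sequences are shown for members annotated as promoter-TSS, that is, near a transcription start site (TSS), whose RefSeq promoter held a motif searched below. This annotation was taken up because all members holding it lacked a window in a KO list (below). Of the 209 regions, at least 6 shared at least 1 bp with a promoter window of the RefSeq table for GRCm38.p6. That is the same assembly as the mm10 build of the peaks. Windows of 1 chromosome were left out of this count, so 6 is a lower bound. The table holds 32851 windows of 250 bases before to 50 bases after a start. The letters of 3 motifs were searched on both strands: the ARE core TGACNNNGC, present in 12.4% of all these windows, the AP-1 core TGANTCA, present in 7.81%, and the C/EBP-ATF element TGATGNAA, present in 3.97%. The first and the second overlap in TGACTCAGC, which 0.454% of the windows hold. The sequences below run 5′ to 3′ on the gene's strand, with matches in capitals. Srxn1, which encodes sulfiredoxin, is shown at chr2:152105274-152105523 (plus strand), the uncharacterised transcript A530013C23Rik at chr2:167690509-167690758 (plus strand), and Srsf2, a splicing factor gene, at chr11:116853255-116853284 (minus strand).
Srxn1: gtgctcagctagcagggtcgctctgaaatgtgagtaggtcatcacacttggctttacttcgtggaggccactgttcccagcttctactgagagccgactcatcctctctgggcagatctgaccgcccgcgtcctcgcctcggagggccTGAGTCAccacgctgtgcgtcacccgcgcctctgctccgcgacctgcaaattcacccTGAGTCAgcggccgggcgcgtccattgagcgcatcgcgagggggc
A530013C23Rik: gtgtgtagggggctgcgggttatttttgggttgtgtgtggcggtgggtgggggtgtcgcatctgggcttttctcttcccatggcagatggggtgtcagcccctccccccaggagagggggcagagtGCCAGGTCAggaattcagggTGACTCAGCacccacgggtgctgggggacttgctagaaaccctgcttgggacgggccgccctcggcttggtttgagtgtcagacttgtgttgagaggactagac
Srsf2: cccaccgcagTGACTGCGCgctttccgccc
In Srxn1 the capitals mark 2 AP-1 cores, at −102 to −96 and −45 to −39 from the start. With the gc that follows it, the second reads TGAGTCAGC, which differs from the searched ARE letters only by a G in place of the C. No ARE letters other than TGACNNNGC were searched, so it was not counted as one. A530013C23Rik held the joined ARE and AP-1 letters at −104 to −96 and a second ARE core on the opposite strand at −124 to −116. Srsf2 held an ARE core, TGACTGCGC, at −180 to −172. Srxn1 and A530013C23Rik each also held 1 ARE core on the opposite strand past the start, at 28 to 36 and 27 to 35, which is not printed. Slc20a1, a phosphate transporter gene whose member lacked WT complete and is annotated to intron 6 of 10, held an ARE core, TGACGCAGC, on the opposite strand of its RefSeq window at −165 to −157. All of these matches lay inside the merged regions. The promoter windows of Eef1a1 and of Abcf3, the latter touching the region annotated to Gm15760, held none of the 3 sets of letters. A letter match is a description of the sequence and does not show that NRF2 binds there.

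More regions lacked a window in a KO list than in a WT list. A KO list was the one without a peak at 131 of the 209 regions (62.7%) and a WT list at 78 (37.3%). By medium, a complete-medium list lacked 123 (58.9%) and a list without leucine 86 (41.1%). The WT no-leucine list, the longest of the 4, lacked the fewest. The KO complete list lacked the most although it was not the shortest, as the WT complete list held 2336 windows against its 3141.

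Cutting every list to its 2336 best-scoring windows removed the difference in length. The counts became 38 (WT complete), 35 (WT no-leucine), 72 (KO complete) and 55 (KO no-leucine), 200 regions in all. A KO list then lacked 127 of them (63.5%) and a WT list 73 (36.5%), while the 2 media moved closer together, with 110 lacking a complete-medium list (55.0%) and 90 a list without leucine (45.0%). Of the regions themselves, 182 of the original 209 were still in exactly 3 lists at equal length. All 27 that lacked the WT no-leucine list and 68 of the 72 that lacked the KO complete list stayed so, against 38 of the 51 that lacked the WT complete list.

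**Figure D1:**
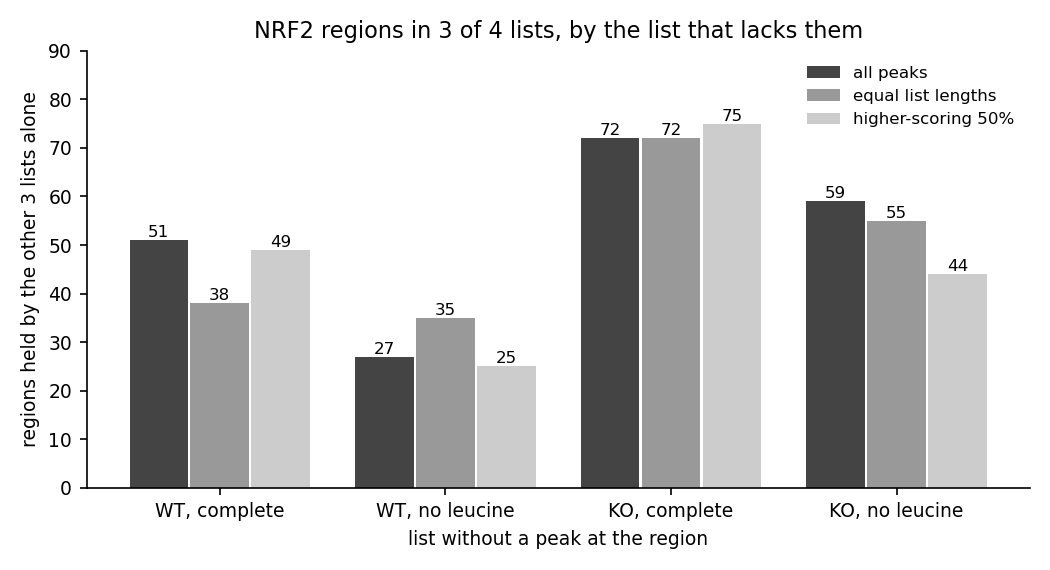
Number of regions with a peak in exactly 3 of the 4 lists (vertical axis), grouped by the list without a peak (horizontal axis), with all peaks, with each list cut to 2336 peaks, and with the higher-scoring 50% of each list. The KO complete list is the tallest group under each of the 3 selections, at 72, 72 and 75 regions, and the WT no-leucine list the smallest, at 27, 35 and 25.

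Each count can also be read against the regions that the other 3 lists agreed on. Of 328 regions held by the other 3 lists, the KO complete list held 256, or 78.05% (95% interval 73.2 to 82.4). The KO no-leucine list held 81.3% of 315 (76.5 to 85.4), the WT complete list 83.4% of 307 (78.7 to 87.4) and the WT no-leucine list 90.5% of 283 (86.4 to 93.6). The same 256 regions enter all 4 shares, and the list with the highest share is also the longest. Presence of a peak defined these regions, and each list comes from 1 library. The shares and their intervals therefore describe the lists and test no difference between conditions. With equal list lengths the shares were 76.7%, 81.2%, 86.2% and 87.1% in the same order. Here and below, intervals are exact Clopper-Pearson intervals that cover counting error only.

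The KO complete list also lacked some of the best-ranked regions. Among regions whose mean rank in the other 3 lists was in the best 10%, the KO complete list held 171 of 200 (85.5%), the KO no-leucine list 169 of 189 (89.4%), the WT complete list 188 of 199 (94.5%) and the WT no-leucine list 154 of 161 (95.7%). Between 10% and 25% the shares fell to 63.8% (KO complete), 71.6% (KO no-leucine), 62.3% (WT complete) and 85.7% (WT no-leucine). Beyond 25% they were 73.5%, 65.4%, 64.1% and 80.0% in that order. WT complete and KO complete were thus about equal in the middle band, and WT complete held the larger share of the best-ranked regions.

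Members mostly stood in the better part of their lists, between regions of all 4 lists and regions of fewer lists. Their mean rank over the 3 holding lists, as a percentage of list length with 0 the best, had a median of 14.3. The median was 6.06 for regions of all 4 lists, 28.2 for 2 lists, 55.3 for 1 list and 51.7 for all regions. Presence in several lists chose the members, so this order is only a description. All 3 windows were in the best 10% of their lists at 31 of the 209, and at least 1 window was in the lower 50% of its list at 48. At 3 regions, all lacking the KO no-leucine list, every window was in the lower 50%. The weakest window of a member had a median score of 47, and 4 members had a window scoring 20 or less, including 1 at the lowest deposited score of 13.

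In each group it could hold, the WT no-leucine list was most often the best-ranked one. Of the 72 regions without a KO complete window, 45 ranked best in the WT no-leucine list, 23 in the KO no-leucine list and 4 in the WT complete list, so 68 ranked best in a list without leucine. Of the 59 without a KO no-leucine window, 38 ranked best in the WT no-leucine list, 12 in the KO complete list and 9 in the WT complete list. Of the 51 without a WT complete window, 26 ranked best in the WT no-leucine list, 20 in the KO no-leucine list and 5 in the KO complete list. Ranks relative to list length favour long lists for a region of fixed order, and the WT no-leucine list is the longest. Regions without a WT no-leucine window sat low in the other WT list, with a median rank of 26.4% in WT complete against 13.6% in KO complete and 7.25% in KO no-leucine. Their best list was KO no-leucine at 16 of 27, KO complete at 10 and WT complete at 1.

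**Figure D2:**
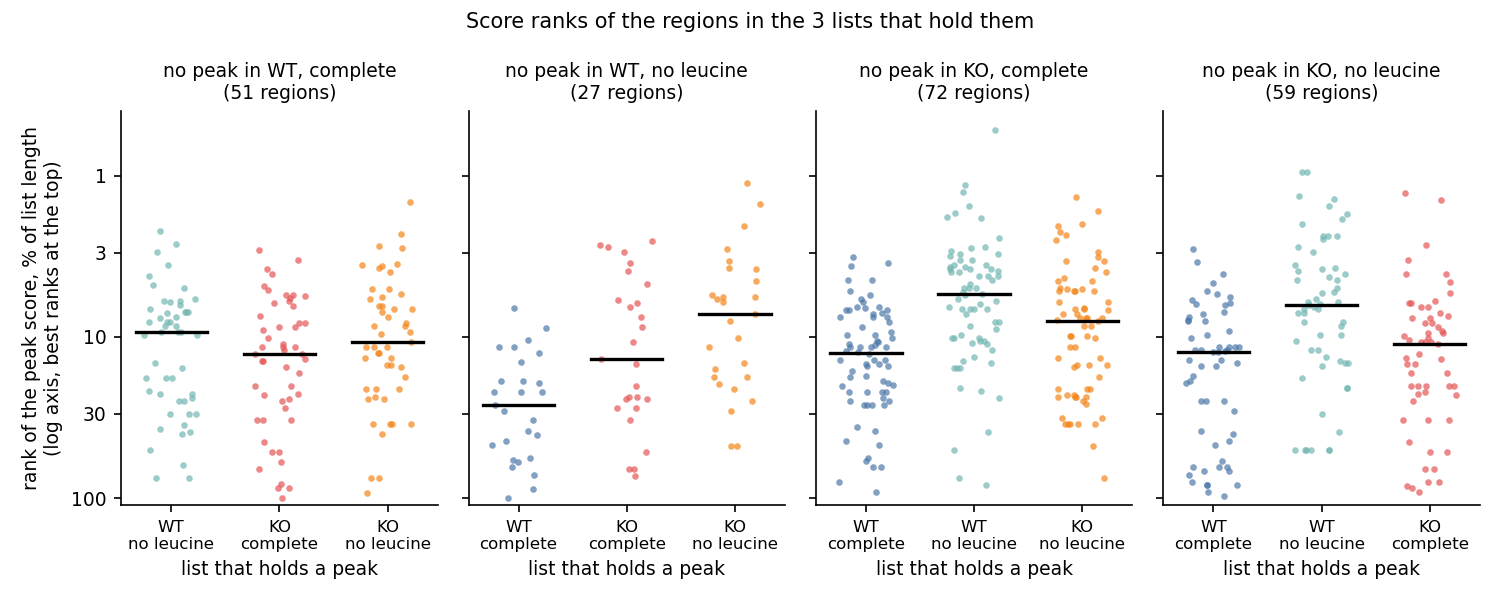
Rank of each region's peak score as a percentage of list length (log axis, best at the top) in the 3 lists that hold it, with 1 panel per missing list, 1 point per region and a bar at the median. In the second panel the WT complete points lie lower (median 26.4%) than the KO no-leucine points (7.25%), and in the third panel the WT no-leucine points lie highest (5.44%).

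Among the 9 gene lists examined, known NRF2 targets had the most genes with a member within 10 kb of a TSS. Of 60 listed targets, 7 had such a region, against 18 with a region of all 4 lists, 8 with a region of 2 lists and 11 with a region of 1 list, where a gene can count more than once. The list without a window was one of the KO lists at 5 targets (Abcc4, Cbr3 and Gstm3 in KO complete, Abcc1 and Srxn1 in KO no-leucine) and the WT complete list at 2 (Esd and Htatip2), a split close to that of the members as a whole. Over all 21896 protein-coding genes, 52 (0.237%) had a member within 10 kb. Ranks below count from the best score in a list, and tied scores share a mean rank.

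Srxn1 encodes sulfiredoxin, which returns overoxidised peroxiredoxins to use. Its region, chr2:152105303-152105657, spanned the TSS in the promoter printed above, and its best-ranked window was annotated at 17 bp upstream. It ranked 322.5 of 2336 in WT complete, 264.5 of 5980 in WT no-leucine and 780 of 3141 in KO complete, with no window in KO no-leucine. The nearest KO no-leucine window was 36172 bp away. Its strongest placing was thus in WT cells without leucine and its weakest in KO cells.

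Abcc1 and Abcc4 encode efflux pumps of the multidrug resistance protein family, of which Abcc1 exports glutathione conjugates. Upstream of Abcc1 were 2 members 1506 bp apart that lacked different lists. The nearer, chr16:14352709-14353062 at 8652 bp upstream, ranked 1033.5 in WT complete, 165.5 in WT no-leucine and 630.5 in KO complete and was missing from KO no-leucine. The farther, chr16:14350842-14351203 at 10519 bp upstream in an L2 repeat, ranked 3721.5 in WT no-leucine, 401.5 in KO complete and 294.5 in KO no-leucine and was missing from WT complete. Every list therefore held at least 1 window of this pair. WT complete held only the nearer site, KO no-leucine only the farther one, and WT no-leucine, which held both, placed the nearer far higher. At Abcc4, chr14:118709679-118710119 lay 3610 bp upstream in an L1M4 repeat, ranked 237 in both WT lists and 620 in KO no-leucine, and was missing from KO complete. As shares of list length, these ranks were 10.15% in WT complete, 3.96% in WT no-leucine and 13.48% in KO no-leucine.

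The other detoxification targets lacked one of the complete-medium lists. Gstm3, a mu-class glutathione S-transferase, had a region in intron 7 of 7 (chr3:107964672-107965065) ranked 436.5 in WT complete, 403.5 in WT no-leucine and 313 in KO no-leucine. The Gstm genes are a cluster of similar copies, and the sources used here do not say how the authors placed reads among copies. Cbr3, a carbonyl reductase gene, had a promoter region 762 bp upstream of its TSS (chr16:93682307-93682682) that ranked 895.5, 536 and 1152 in the same lists. Both were missing from KO complete, and for Cbr3 the nearest KO complete window was 377417 bp away. Esd, the gene of S-formylglutathione hydrolase, had a region in intron 1 of 8 (chr14:74733382-74733716) that ranked 511.5 in WT no-leucine, 171.5 in KO complete and 578.5 in KO no-leucine and was missing from WT complete.

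Htatip2 shows how a gene can miss a region and still hold a window. Its member in intron 3 of 5 (chr7:49763969-49764333) ranked 213 in WT no-leucine, 349 in KO complete and 105 in KO no-leucine. The WT complete list had none there but held another window 4289 bp away at rank 192. Of the 62 members within 10 kb of a TSS, 9 had such another window of the missing list at the same gene.

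**Figure D3:**
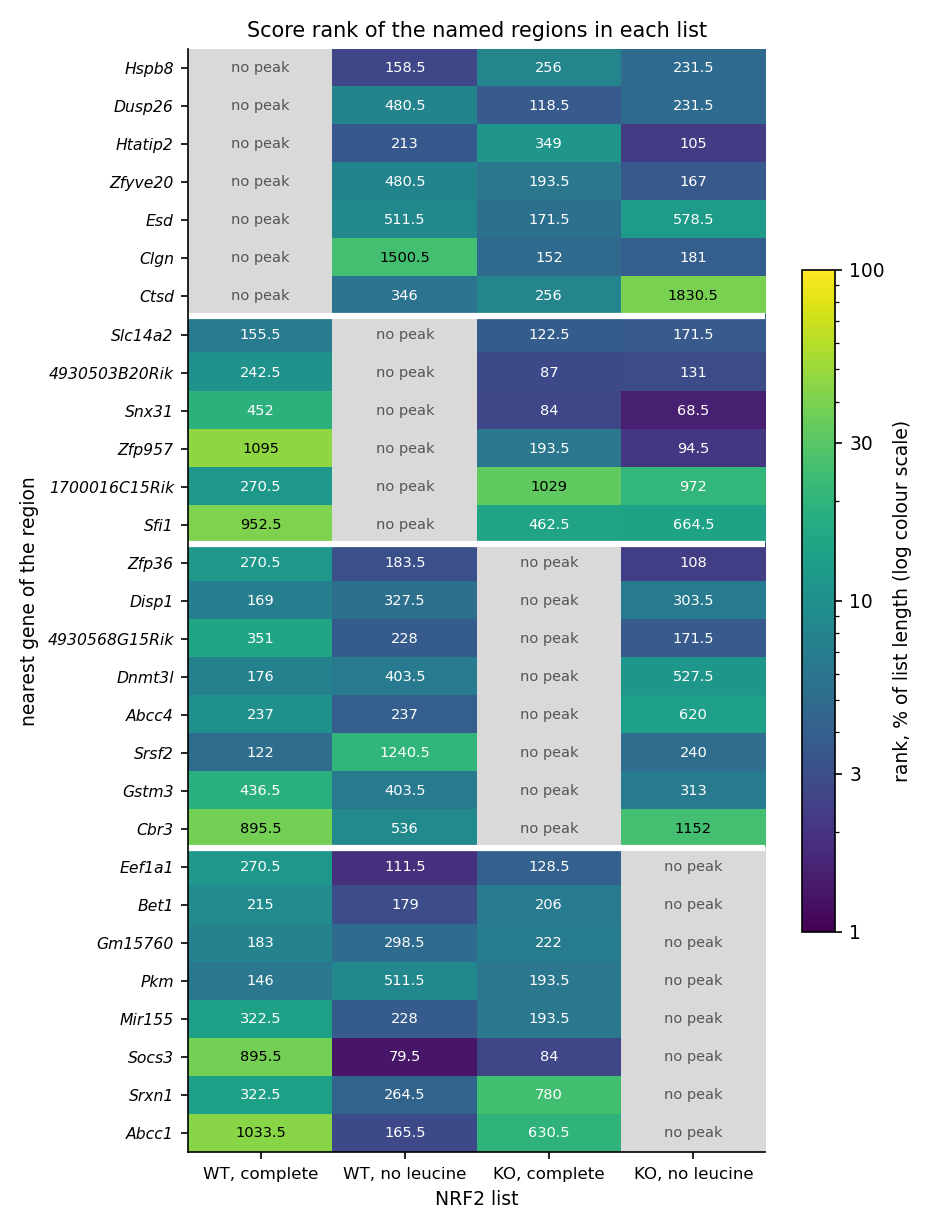
Score rank (number in each cell) of 29 named regions in the 4 lists, coloured by rank as a percentage of list length (log colour scale), with grey cells where a list has no peak. White lines separate the groups by missing list, and dark cells mark high placings such as Snx31 at 68.5 in KO no-leucine and Socs3 at 79.5 in WT no-leucine.

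Of 52 immediate-early and cytokine feedback genes, 2 had a member within 10 kb, each missing from a different KO list. Zfp36 encodes tristetraprolin, which speeds decay of AU-rich mRNAs, and its region 2341 bp upstream (chr7:28381339-28381719) ranked 270.5 in WT complete, 183.5 in WT no-leucine and 108 in KO no-leucine. Socs3 encodes an inhibitor of cytokine receptor signalling, and its region in exon 2 of 2 (chr11:117967861-117968288) ranked 895.5 in WT complete, 79.5 in WT no-leucine and 84 in KO complete. Zfp36 lacked KO complete and Socs3 KO no-leucine. Another region lay in a B3 repeat in intron 8 of 9 of another gene, Mrpl39. The nearest TSS, 6627 bp away, was that of Mir155, an inflammation-linked microRNA. The region ranked 322.5, 228 and 193.5 in WT complete, WT no-leucine and KO complete.

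Of 60 chaperone, ubiquitin and proteasome genes and 55 autophagy and lysosome genes, 1 each had a member within 10 kb, and both members lacked WT complete. Hspb8, a small heat shock protein that takes part in chaperone-assisted autophagy, had a region in intron 1 of 2 (chr5:116420986-116421331) that ranked 158.5 in WT no-leucine, 256 in KO complete and 231.5 in KO no-leucine. Ctsd, the lysosomal protease cathepsin D, had one 5475 bp upstream that ranked 346, 256 and 1830.5 in those lists. As shares of list length, Hspb8 was at 2.65%, 8.15% and 5.03%, and Ctsd at 5.79%, 8.15% and 39.8%. Of 65 ATF4 and amino acid response genes, the classical targets downstream of GCN2, none had a member within 10 kb, and 5 had a region of 1 list. With 0.237% of all protein-coding genes having a member, counts of 0 or 1 in lists of this size are near the background and are not a result about these genes. None of 48 heme and iron genes, 27 AP-1, CNC, BACH and small Maf genes, 47 fibroblast genes or 35 macrophage genes had a member within 10 kb either. The limit leaves out members farther off, such as 1 in intron 1 of 4 of Bach1, 14237 bp from its TSS. Another lay 19.2 kb upstream of Fosl2.

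Among the other members near genes that lacked KO no-leucine, Eef1a1, which encodes the factor that brings aminoacyl-tRNA to the ribosome, had 2 regions 334 bp apart. The one in intron 1 of 7 (chr9:78480810-78481154) ranked 270.5 in WT complete, 111.5 in WT no-leucine and 128.5 in KO complete. The one at the promoter (chr9:78481488-78481849) ranked 1856, 141 and 40. The nearest KO no-leucine window was 315698 bp away, so at this gene the KO no-leucine list missed a pair that the KO complete list placed at 128.5 and 40. Pkm, the pyruvate kinase of glycolysis, had a region 2777 bp upstream that ranked 146, 511.5 and 193.5. Bet1, a vesicle-fusion protein of the endoplasmic reticulum and Golgi, had one in an RMER19C repeat 3691 bp upstream at 215, 179 and 206.

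Members that lacked KO complete included Srsf2, whose promoter region (chr11:116853117-116853420) ranked 122 in WT complete, 1240.5 in WT no-leucine and 240 in KO no-leucine. Dnmt3l, a cofactor of de novo DNA methylation, had a region 441 bp upstream of its TSS that ranked 176, 403.5 and 527.5. Disp1, which releases Hedgehog ligands from cells, had one in intron 1 of 8 at 169, 327.5 and 303.5. The long noncoding locus 4930568G15Rik had one at 351, 228 and 171.5. All 4 were in the better 25% of each list that held them.

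Regions that lacked WT complete included those of Dusp26, a phosphatase gene, at 480.5 in WT no-leucine, 118.5 in KO complete and 231.5 in KO no-leucine. Zfyve20, an endosomal trafficking gene, had an intron 1 region at 480.5, 193.5 and 167, and Clgn, a chaperone of the endoplasmic reticulum, had a region 9512 bp upstream at 1500.5, 152 and 181. All 3 were placed at a better rank in both KO lists than in WT no-leucine.

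Regions that lacked WT no-leucine were the rarest, and none within 10 kb of a TSS belonged to a gene of the 9 lists. Slc14a2, a urea transporter gene, had one 4464 bp upstream that ranked 155.5 in WT complete, 122.5 in KO complete and 171.5 in KO no-leucine. Snx31, a sorting nexin gene, had one in an ORR1B1 repeat at 452, 84 and 68.5, 4930503B20Rik one in an L1M3 repeat at 242.5, 87 and 131, and Zfp957 one in intron 1 of 2 at 1095, 193.5 and 94.5. These 3 ranked better in both KO lists than in WT complete. By contrast, 1700016C15Rik had an ORR1D1 region at 270.5 in WT complete, 1029 in KO complete and 972 in KO no-leucine.

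Some of the best-ranked members lay far from the nearest TSS, and 3 of these are named here after their values were seen. The highest, chr16:70506500-70506808, lay in intron 12 of 15 of Gbe1, the glycogen branching enzyme gene, with the TSS of D16Ertd519e nearest at 109767 bp. It ranked 104 in WT complete, 31 in WT no-leucine and 103.5 in KO no-leucine and had its nearest KO complete window 2590405 bp away. A region 37.9 kb upstream of Vegfa, the vascular growth factor gene, ranked 122, 56.5 and 104.5 in WT complete, WT no-leucine and KO complete and lacked KO no-leucine. One in intron 13 of 31 of Dlg5, 75039 bp from the nearest TSS, that of Mir7210, ranked 249.5, 232.5 and 128.5 in WT no-leucine, KO complete and KO no-leucine and lacked WT complete.

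Location beside genes did not set the members far apart from other regions. Of the 209, 62 lay within 10 kb of a TSS, or 29.7% (23.6 to 36.4), against 25.3% of all regions and 37.9% of those in all 4 lists. Intergenic windows made up 114 members and intronic ones 78.

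All members annotated as promoter-TSS were missing from 1 of the KO lists. The 9 members annotated as promoter-TSS made 4.31% of 209, against 2.06% of all regions and 4.69% of those in all 4 lists. By list, Cbr3, Dnmt3l, Fmn1 and Srsf2 lacked KO complete, and A530013C23Rik, Eef1a1, Gm15760, Srxn1 and Trim16 lacked KO no-leucine. None of the 78 regions missing from a WT list was annotated so, which allows a share of up to 4.62%, above the 2.06% of all regions. Of all members, 62.7% lacked a KO list. By RefSeq windows, the Slc20a1 member, which lacked WT complete, also shared bases with a promoter. The promoter counts were not planned before the values were seen. With lists cut to equal length the counts were 7 and 0, and with the higher-scoring 50% of each list 6 and 1. Promoter windows were also a smaller part of the KO lists, at 1.54% of KO no-leucine and 2.13% of KO complete against 2.70% of WT complete and 2.69% of WT no-leucine. The regions of exactly 2 lists, which are other regions from the same libraries, gave 7 promoters among 149 shared by the WT lists alone (4.698%, 1.91 to 9.44) and 1 among 97 shared by the KO lists alone (1.03%, 0.0261 to 5.61). Those intervals overlap.

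CpG content differed for the regions without a KO no-leucine window. At 30 of those 59 (50.8%, 37.5 to 64.1) at least 2% of the dinucleotides in the windows were CpG, against 16 of 72 lacking KO complete (22.2%), 11 of 51 lacking WT complete (21.6%), 2 of 27 lacking WT no-leucine (7.41%) and 30.8% of all regions. Regions of all 4 lists gave 27.3%. The CpG counts were not planned before the values were seen, and the 2% cut equals the median of the group without KO no-leucine. Regions of exactly 2 lists did not show such a gap, with 60 of 238 without KO no-leucine (25.2%) against 55 of 238 with it (23.1%). The most CpG-rich members without KO no-leucine included Eef1a1 at 11.2%, Srxn1 at 10.4% and Socs3 at 9.89%. Median GC content differed little, at 50.9% for these regions and between 48.4% and 49.5% for the other 3 groups. In the lists as a whole, windows of at least 2% CpG made up 26.9% of KO no-leucine and between 32.0% and 32.4% of the others. The part that these shares of the whole lists play in the members' counts was not tested.

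**Figure D4:**
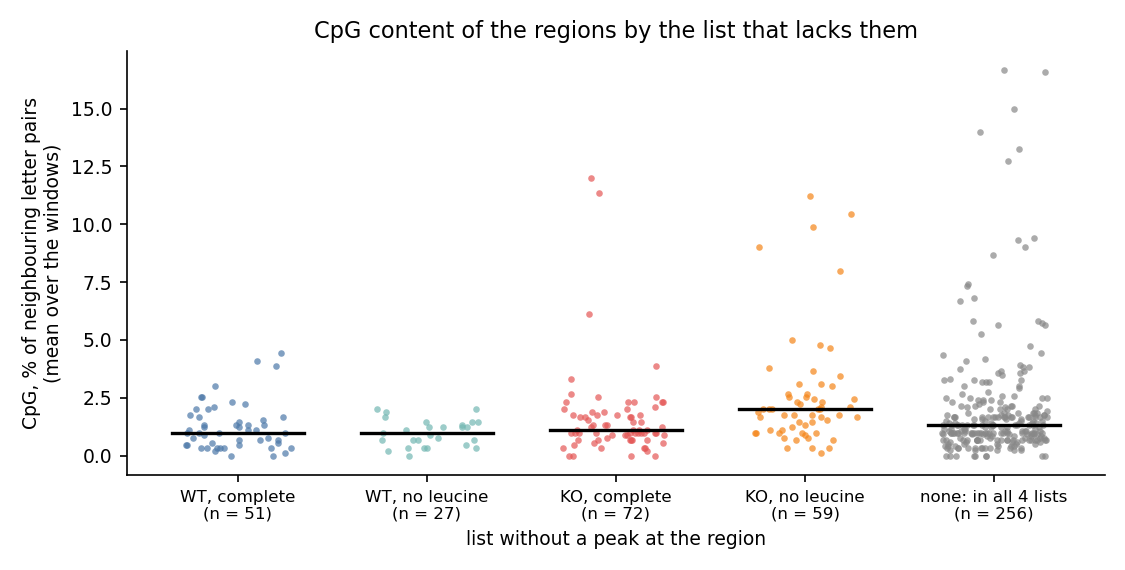
CpG content of each region (vertical axis, percent of dinucleotides, mean over its windows) by the list without a peak, with regions of all 4 lists at the right, 1 point per region and a bar at the median. The group without a KO no-leucine peak has a median of 2%, and the other 3 groups between 1% and 1.11%.

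Repeats divided the groups as well. These are mobile-element copies spread through the genome, and the class was taken from the best-ranked window. Short interspersed elements (SINEs) made up 37 of the 209 members, 17.7% (12.8 to 23.6), against 8.03% of all regions and 9.38% of those in all 4 lists. Among regions of exactly 2 lists, SINEs made up 13.2% (10.3 to 16.6), an interval that overlaps the one for members. Of the 72 lacking KO complete they made up 22 (30.6%, 20.2 to 42.5), whereas they made up 5 of 59 lacking KO no-leucine (8.47%), 5 of 51 lacking WT complete (9.80%) and 5 of 27 lacking WT no-leucine (18.5%).

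Most were rodent B2-family elements, chiefly B3 with 17 members and B3A with 11. This family, singled out after the values were seen, made up 18 of the 72 regions lacking KO complete (25%, 15.5 to 36.6). Its share was 2.38% of all regions, 5.86% of those in all 4 lists and 14.4% of the 209 members. It also made up 5 of 27 lacking WT no-leucine (18.5%, 6.3 to 38.1), an interval that overlaps the one for KO complete. In the other groups it made up 4 of 51 lacking WT complete (7.84%) and 3 of 59 lacking KO no-leucine (5.1%). Among regions of exactly 2 lists the gap was small, with 24 of 290 without KO complete (8.28%) against 12 of 186 with it (6.45%). In the lists, B2-family windows made up 4.11% of WT complete, 2.88% of WT no-leucine, 2.45% of KO complete and 3% of KO no-leucine, the KO complete share being the lowest. Named B3 members included those annotated to Mir155 and Sfi1, the second a spindle assembly gene.

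Long terminal repeat (LTR) elements, remnants of retroviruses, went the other way. They made up 27 of the 209 (12.9%) against 9.49% of all regions, with 14 of 51 lacking WT complete (27.5%, 15.9 to 41.7), 6 of 27 lacking WT no-leucine (22.2%), 5 of 72 lacking KO complete (6.94%) and 2 of 59 lacking KO no-leucine (3.39%). The ERVL-MaLR family, also singled out after the values were seen, gave 11 of the 78 regions missing from a WT list (14.1%) and 0 of the 131 missing from a KO list, which allows up to 2.78%. It made up 4.93% of all regions, 7.56% of those in 2 lists and 1.95% of those in all 4 lists. The last share is below the upper limit of 2.78%. Of the 11, ORR1B1 elements gave 4 and ORR1A2 elements 3. One of the ORR1B1 members, 24.9 kb upstream of the alarmin cytokine gene Il33, ranked 1800 in WT no-leucine, 1623.5 in KO complete and 171.5 in KO no-leucine.

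The lists themselves differed in the same direction but by less. ERVL-MaLR windows made up 4.24% of WT complete and 3.93% of WT no-leucine against 5.57% of KO complete and 5.91% of KO no-leucine. Among regions of exactly 2 lists, the family gave 6 of 149 in the WT pair (4.03%, 1.49 to 8.56) and 9 of 97 in the KO pair (9.28%, 4.33 to 16.9). These 2 intervals overlap. In pairs of mixed genotype it gave 7 of 44 (WT complete and KO no-leucine, 15.9%) and 8 of 97 (the 2 no-leucine lists, 8.25%). It gave 5 of 66 in WT no-leucine and KO complete (7.58%) and 1 of 23 in the 2 complete-medium lists (4.35%). The highest share was thus in a mixed pair. With equal list lengths the members gave 10 missing from a WT list and 0 missing from a KO list. The sources used here do not say how reads that map to several copies were treated.

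**Figure D5:**
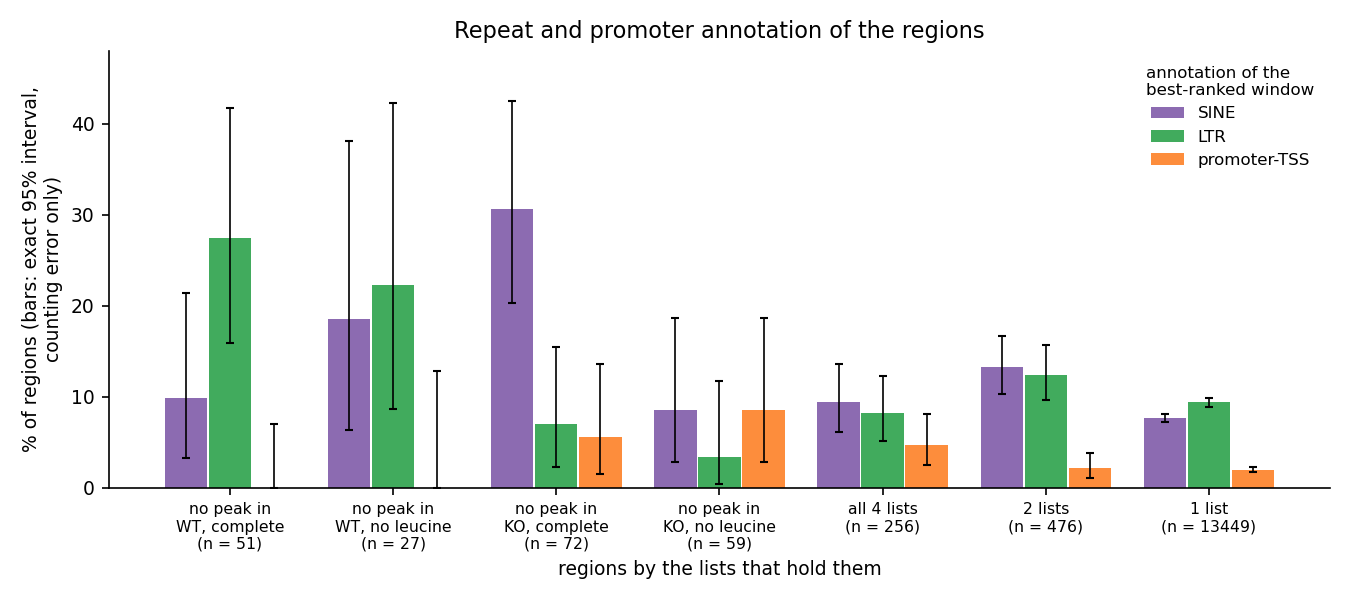
Share of regions (vertical axis, percent) whose best-ranked window is annotated to a SINE, an LTR or a promoter, by the list without a peak and for regions of 4, 2 and 1 lists, with exact 95% intervals for counting error. SINE bars reach 30.6% where KO complete lacks a peak, LTR bars 27.5% where WT complete does, and promoter bars are 0 in both groups without a WT peak.

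Windows of one region coincided closely across the lists. Window starts within a member differed by a median of 45 bp, against 42 bp for regions of all 4 lists, and 185 of the 209 had at least 200 bp common to all 3 windows. Just inside the overlap limit were a region at Sfi1 (chr11:3192046-3192651), linked by only 32 bp, and one near Mir6388, linked by 75 bp. Just outside it, the missing list had a window 445 bp from a Pisd-ps3 region on an unplaced contig and 506 and 584 bp from 2 Sfi1 regions. The median distance to the nearest window of the missing list was 144450 bp, and it was within 10 kb at 18 of the 209 and within 1 kb at 3.

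Sfi1 carried 3 members on chromosome 11 that lacked 3 different lists. The region missing from WT complete (chr11:3184685-3185248) lay 6798 bp from the one missing from WT no-leucine, which lay 3766 bp from the one missing from KO complete (chr11:3196417-3196732). The missing list had 3 or 4 other windows assigned to Sfi1 in each case. These 3 regions were also among 7 members (3.35%) within 10 kb of a region of all 4 lists, against 3.13% of regions of all 4 lists, 1.68% of those of 2 lists and 0.591% of all regions. Members annotated to Pisd-ps3, H6pd and Snora2b were among the rest.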

How the data were processed

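NRF2 ChIP-seq was read as single 50 bp reads, per the labels' protocols. The submitters' processing notes list BWA 0.7.12, MACS2 2.1.0, HOMER 4.7 and mm10. Per the file headers, each library's peaks were called against input from complete medium of its own genotype, then annotated with HOMER. The authors deposited a whole-number score per peak, and the sources used here do not say which caller column it came from. They deposited CpG and GC content as a fraction of each window. The input libraries were not analysed here.

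Windows were merged with Python 3.11.15 and pandas 2.3.3, tested on simulated data and checked against bedtools 2.31.1, which gave the same 14390 regions. Scores were used as ranks within a list, except for the weakest window of a member. That window was the one with the lowest deposited score in the 3 lists, whose depths are unknown. Intervals used scipy 1.17.1. Distances, features and repeats follow the authors' nearest-gene annotation in the best-ranked window, and CpG and GC are means over the windows of a region.

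Members and lists were chosen with earlier results of these data known. The rule for naming took, per missing list, the 6 best-ranked regions within 10 kb of a TSS, 1 per gene, every gene of 9 lists with a member within 10 kb, and members at the overlap limit. Some genes that meet the rule or enter a count are not reported here. No genome sequence was used, so motifs were read only in RefSeq promoter windows. Alternatives were equal list lengths, the higher-scoring 50%, a reciprocal overlap of 50%, windows widened by 500 bp, main chromosomes without satellite, simple, low-complexity and rRNA repeats, and TSS limits of 1 and 50 kb.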

Additional observations from a re-analysis of the deposited data

How the results depend on the processing

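Of 92 values recomputed under an alternative, 89 moved by less than the limit set for a change, which was 1.5 times for counts and the main 95% interval for shares. The share of members within a distance of a TSS followed the limit by construction, at 5.74% within 1 kb and 67.9% within 50 kb against 29.7% within 10 kb. Promoter members missing from a WT list numbered 1 with the higher-scoring 50% of each list and 0 otherwise, and the cause was not tested. The number of regions in exactly 3 lists ranged from 193 (higher-scoring 50%) to 216 (windows widened by 500 bp), and of the 209 members, 161 and 206 were also members there. The KO complete list lacked between 72 and 75 regions, the KO no-leucine list between 44 and 59, the WT complete list between 38 and 56 and the WT no-leucine list between 25 and 35. With the higher-scoring 50%, WT complete lacked 49 and KO no-leucine 44, so their order turned. The alternatives for promoter, repeat-family and CpG counts were chosen after seeing the data. No paired analysis was possible because each condition has 1 library, and no replicate could be left out. Depth is unknown, so no detection limit in reads can be given.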

Other observations

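Members without a role in the gene lists included Fmn1, an actin-nucleating formin, whose promoter region ranked 351 in WT complete, 1432 in WT no-leucine and 240 in KO no-leucine and lacked KO complete. Trim16, a tripartite motif gene, had a region annotated at 1 bp from its TSS that ranked 1581.5, 716.5 and 2628 in WT complete, WT no-leucine and KO complete. H6pd, which makes NADPH in the endoplasmic reticulum, had a B3 region in intron 1 of 4 that ranked 351, 577.5 and 340 in the same lists, with a KO no-leucine window 4240 bp away. Lrp8, a receptor of apolipoprotein E, had a region in intron 2 of 18 that ranked 1500.5 in WT no-leucine, 176 in KO complete and 249 in KO no-leucine, and Mgst2, a microsomal glutathione transferase, one in intron 2 of 4 at 559.5, 630.5 and 527.5. Both lacked WT complete. These genes were chosen after their values were seen.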
